A study of Mus musculus with 8 samples.

Results

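The genes described are 38 mouse genes that are induced by type I or type II interferon, chosen by name and found in the deposited table by matching its Ensembl identifiers to GENCODE M21 symbols. Of these, 37 were among the 25367 genes of the table, 33 had enough counts to be tested, and Gbp5 was not analysed here. They were measured by RNA-seq in group 2 innate lymphoid cells (ILC2s), lymphocytes that lack antigen receptors and make IL-5 and IL-13. The cells came from the large intestine of wild-type C57BL/6 mice, were sorted, and were cultured for 5 days in complete IMDM medium. Both groups were fed the alarmins IL-33 and IL-25 and the survival cytokines IL-7 and IL-2 (10 ng/mL of each). One group of 4 libraries then received SC-57461A for 16 hours and the other 4 received vehicle. This compound blocks leukotriene A4 hydrolase and with it the synthesis of leukotriene B4. The dose, the age of the mice and whether the replicates were separate animals or cultures are not given in the labels, so the spread behind each p-value is that of these libraries and may be technical.

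Type I interferons signal through IFNAR1 and IFNAR2, type II interferon (IFN-gamma) through IFNGR1 and IFNGR2, and both use JAK kinases to activate STAT proteins. Complexes that hold STAT2 and IRF9 bind interferon-stimulated response elements, while type II signalling acts mainly through gamma activated sites. The induced genes encode sensors of foreign nucleic acid, transcription factors that carry the signal on, inhibitors that end it, and effectors that act against viruses or intracellular bacteria. IFN-gamma is known to restrain ILC2s.

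Total counts ran from 47376196 to 71155654 per library. The libraries fell into 2 sets that cross the treatments and that were read from the sum of FPKM (fragments scaled by gene length and library total) in each library. Set A was vehicle replicates 1 and 2 with SC-57461A replicates 2 and 3, and set B was vehicle replicates 3 and 4 with SC-57461A replicates 1 and 4. Of 15095 genes tested, 50.6% differed between sets and 5.33% between treatments in the same fit. When the sets were ignored, 0.331% differed between treatments. Because the sets were read from these same libraries, a difference between them was partly built in. The share between sets is thus a description and no like measure to the share between treatments. What the sets are is not given in the labels, and a difference in handling, in cells or in animals cannot be told apart. All 13 markers fixed for ILC2s had counts in every library, and their sum was 16521 to 19751 CPM (counts scaled to library size). Results are therefore given from the pooled fit, which ignores the sets, and from a set-adjusted fit, which has library set as a second term.

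The stretches of 250 bases before the transcription start hold the response elements by which many of these genes are known to be switched on. RefSeq promoters (GRCm38.p6) were matched to 29 of the 38 genes. The core of the interferon-stimulated response element, written as GAAA, then any 2 bases, then GAAA, was searched on both strands and was found in 16 of the 29 (55.2%) and in 3.46% of the promoters of 27025 genes of the same length. The gamma activated site, written as TTC, any 3 bases and GAA, was found in 7 of the 29 (24.1%) and in 8.13% of all. Either motif was found in 18 of the 29 (62.1%) and in 11.1% of all. Because the genes were listed for being induced by interferon, these shares describe the list and are no independent finding.

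7 promoters are shown, those of genes that moved with treatment or stood at its threshold and, for contrast, of Igtp and Irf1, which are abundant and did not pass the test. Each is the 250 bases before the RefSeq start, written along the gene's own strand, in lower case with motif matches in capitals. That start can differ from the start of the gene in the deposited table. The Irgm1 window lies inside the deposited gene (chr11:48861968-48871683), and the Stat2 window ends short of the deposited start at 128270576. They lie at chr4:156200819-156201068, minus strand (Isg15), chr11:48871421-48871670, minus strand (Irgm1), chr10:128270248-128270497, plus strand (Stat2), chr11:58199306-58199555, plus strand (Igtp), chr11:53769764-53770013, plus strand (Irf1, the first of its annotated starts), chr4:40239826-40240075, minus strand (Ddx58) and chr11:72301379-72301628, plus strand (Xaf1).

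Isg15: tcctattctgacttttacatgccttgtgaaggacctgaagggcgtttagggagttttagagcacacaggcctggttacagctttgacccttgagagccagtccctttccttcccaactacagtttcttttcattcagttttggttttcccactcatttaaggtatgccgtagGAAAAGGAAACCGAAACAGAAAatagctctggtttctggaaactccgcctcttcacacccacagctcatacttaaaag

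Irgm1: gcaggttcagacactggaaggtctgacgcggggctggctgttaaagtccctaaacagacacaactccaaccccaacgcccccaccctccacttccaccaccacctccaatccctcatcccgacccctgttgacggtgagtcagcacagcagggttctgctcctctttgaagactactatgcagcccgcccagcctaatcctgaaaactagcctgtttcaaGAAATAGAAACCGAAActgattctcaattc

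Stat2: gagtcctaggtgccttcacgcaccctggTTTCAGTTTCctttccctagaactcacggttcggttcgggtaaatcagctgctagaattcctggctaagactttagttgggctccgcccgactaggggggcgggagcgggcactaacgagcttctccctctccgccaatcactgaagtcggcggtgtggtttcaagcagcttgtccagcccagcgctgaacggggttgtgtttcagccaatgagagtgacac

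Igtp: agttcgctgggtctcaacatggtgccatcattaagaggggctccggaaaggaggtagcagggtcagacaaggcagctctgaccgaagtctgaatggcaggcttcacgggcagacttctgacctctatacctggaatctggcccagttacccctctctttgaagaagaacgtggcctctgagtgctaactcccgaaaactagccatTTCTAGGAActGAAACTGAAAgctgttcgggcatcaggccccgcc

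Irf1: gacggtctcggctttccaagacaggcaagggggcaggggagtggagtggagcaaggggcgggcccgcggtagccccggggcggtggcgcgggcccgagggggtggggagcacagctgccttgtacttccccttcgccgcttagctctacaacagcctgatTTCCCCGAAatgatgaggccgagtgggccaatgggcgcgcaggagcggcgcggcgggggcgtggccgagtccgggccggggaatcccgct

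Ddx58: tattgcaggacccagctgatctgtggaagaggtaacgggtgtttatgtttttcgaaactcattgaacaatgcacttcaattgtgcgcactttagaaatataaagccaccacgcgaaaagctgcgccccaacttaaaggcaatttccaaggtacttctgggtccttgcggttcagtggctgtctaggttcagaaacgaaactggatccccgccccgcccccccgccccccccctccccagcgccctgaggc

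Xaf1: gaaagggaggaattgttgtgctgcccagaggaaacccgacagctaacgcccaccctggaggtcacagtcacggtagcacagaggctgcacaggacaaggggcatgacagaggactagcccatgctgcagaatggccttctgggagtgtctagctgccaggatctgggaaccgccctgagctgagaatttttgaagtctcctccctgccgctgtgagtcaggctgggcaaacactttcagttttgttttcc

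Counting the base before the start as -1, Isg15 held 3 overlapping matches to the response element core from -78 to -57, Irgm1 held 2 overlapping ones from -30 to -15, and Stat2 held 1 on the other strand from -222 to -213. Igtp held a gamma activated site match from -45 to -37 followed by a response element match from -34 to -25. Irf1 held a gamma activated site match from -90 to -82. Neither set of letters was in the window of Ddx58 or of Xaf1. Genes with a match stood among those that were lower (Isg15, short of the threshold) and those that were higher (Stat2, Irgm1), and the genes called lower with a window shown, Ddx58 and Xaf1, had none. Zbp1, also called lower, had no matched promoter and was not searched. A match is a match of letters and does not show a bound site.

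The interferon response genes had very unequal levels in vehicle-treated ILC2s. On the FPKM scale, which allows genes of different length to be compared, 6 had a mean of at least 10, 12 had a mean between 1 and 10, and 19 were below 1. The highest were Socs1, an inhibitor of JAK kinases that cytokines other than interferon also induce, at 137 ± 40.5 FPKM (SD, n = 4), Bst2 (tetherin, which holds budding virus at the cell surface) at 82.2 ± 38.0 FPKM and the guanylate-binding protein gene Gbp4 at 63.0 ± 11.9 FPKM. The intervals of mean ± SD overlapped between Socs1 and Bst2 and between Bst2 and Gbp4. The immunity-related GTPase gene Igtp followed at 38.5 ± 3.44 FPKM, then Ifi35 at 25.8 ± 3.84 FPKM and the transcription factor gene Irf1 at 16.9 ± 1.89 FPKM. From Gbp4 down to Irf1 neighbours in this order did not overlap within 1 SD. Genes that are usually low without interferon were near the floor: Mx1 reached 32 counts in its highest library, Usp18 23 counts, Rsad2 29 counts and Cxcl10 22 counts. Cxcl9, a chemokine gene induced mostly by IFN-gamma, had 0 counts in all 8 libraries, which still allows 3 counts per library, that is 0.0422 to 0.0633 CPM (counting error only). Of the interferon genes themselves, the table held 3, and none was tested: Ifng had 0 to 13 counts per library, Ifnz 1 to 12 and Ifnab 0 to 4. In such bulk samples, fewer cells of a type and less RNA per cell cannot be told apart.

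**Figure D1:**
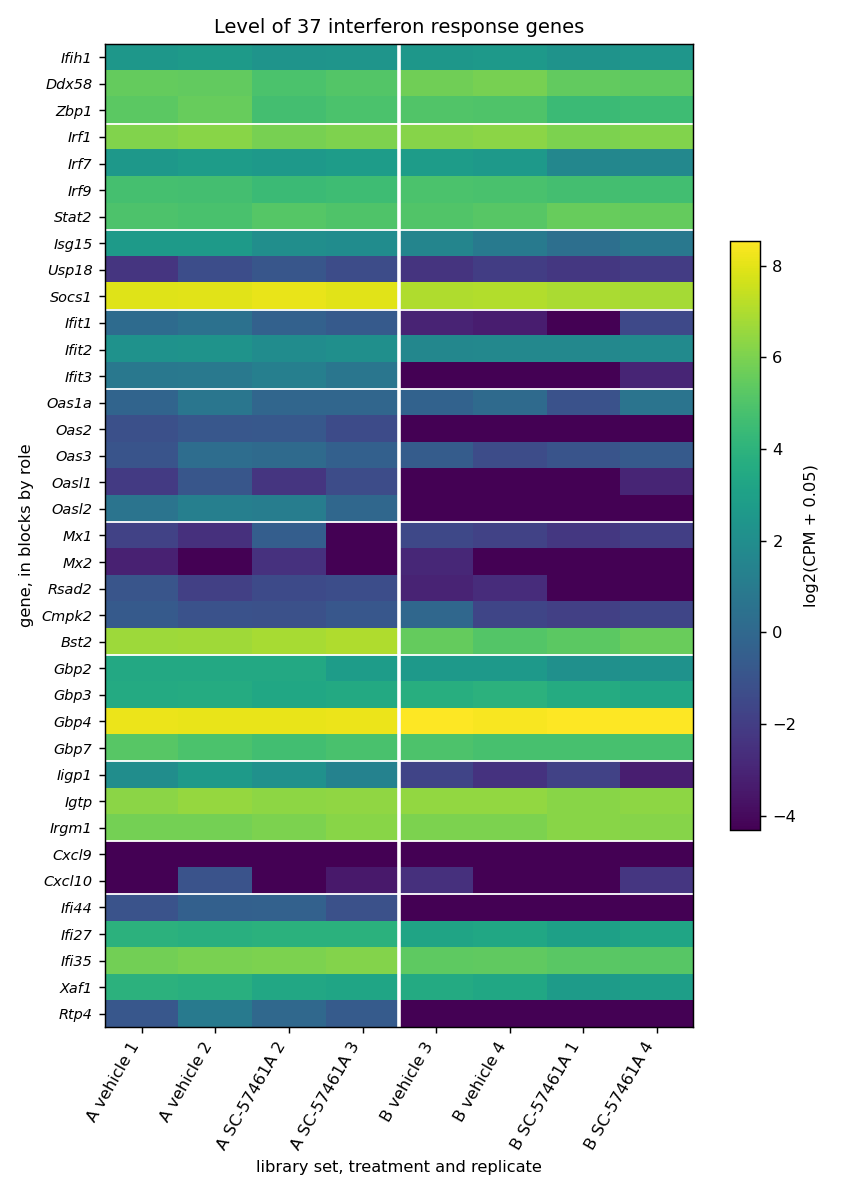
Heat map of log2(CPM + 0.05) for the 37 genes of the table, in blocks by role (rows), in the 8 libraries ordered by library set, treatment and replicate (columns). Gbp4 and Socs1 are the 2 highest in every library, Bst2 comes next in set A and lower down in set B, and Oas2, Oasl2, Ifi44 and Rtp4 are at 0 in all 4 libraries of set B.

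SC-57461A was followed by small changes in a few interferon response genes, and they went both ways. In the pooled fit (edgeR quasi-likelihood test, two-sided, Benjamini-Hochberg adjusted p under 0.05 over all genes tested) 0 of the 33 tested genes were higher and 0 were lower, where 0.272% of all genes were called higher, 0.0596% lower and 0.331% in all. At an unadjusted p under 0.05 there were 5 of the 33, where 6.68% of all genes passed, and DESeq2 and limma without library set also called 0. With library set as a term, 3 genes fell, Ddx58, Zbp1 and Xaf1, and 2 rose, Stat2 and Irgm1. That is 15.2% of the 33, where 5.33% of all 15095 genes were called. The 3 that fell are 9.09% of the 33, against 2.5% of all genes called lower, and 2.83% of all genes were called higher. The median log2 fold change over the 33 was -0.18 in the set-adjusted fit and 0.0044 over all genes, and 23 of the 33 (69.7%) were below 0, against 49.1% of all. Without any model, 8 of the 33 (24.2%) had lower CPM in both SC-57461A libraries than in both vehicle libraries of each set, against 10.3% of all genes. Higher in the same way were 2 (6.06%), Stat2 and Irgm1, against 9.61% of all. All 4 SC-57461A libraries were below all 4 vehicle libraries for 4 of the 33, Ifih1, Ddx58, Zbp1 and Irf1, where 3.13% of all genes were, and above them for 0 of the 33, where 3.01% of all genes were. Some marker sums moved with treatment in both sets. The 13 ILC2 markers summed to 18439 to 19004 CPM with vehicle and 19667 to 19751 CPM with SC-57461A in set A, and to 16521 to 17220 against 18847 to 19183 CPM in set B. Not all of the 13 moved that way: by the mean over 4 libraries 8 were higher with SC-57461A, Il5, Il13 and Il2ra among them, and 5 were lower, namely Gata3 (894 to 698 CPM), Il1rl1 (2494 to 2268 CPM), Il17rb (26.2 to 22.0 CPM), Thy1 (68.7 to 63.6 CPM) and Ptprc (650 to 611 CPM). The 4 ILC3 markers summed to 24.6 to 28.5 against 39.7 to 43.7 CPM in set A and to 19.3 to 25.0 against 29.4 to 35.6 CPM in set B. The sum of the 8 epithelial markers was higher with SC-57461A in set A (36.6 to 45.4 against 14.4 to 23.8 CPM) and lower in set B (9.31 to 13.1 against 14.2 to 16.5 CPM). In set B, 4 of the 8 were at 0 throughout, and Muc2 and Vil1 had at most 14 and 4 counts. The set B sum thus rests on Epcam (353 to 785 counts) and Krt18 (86 to 219 counts). The part of these cell types in the treatment results was not tested.

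**Figure D2:**
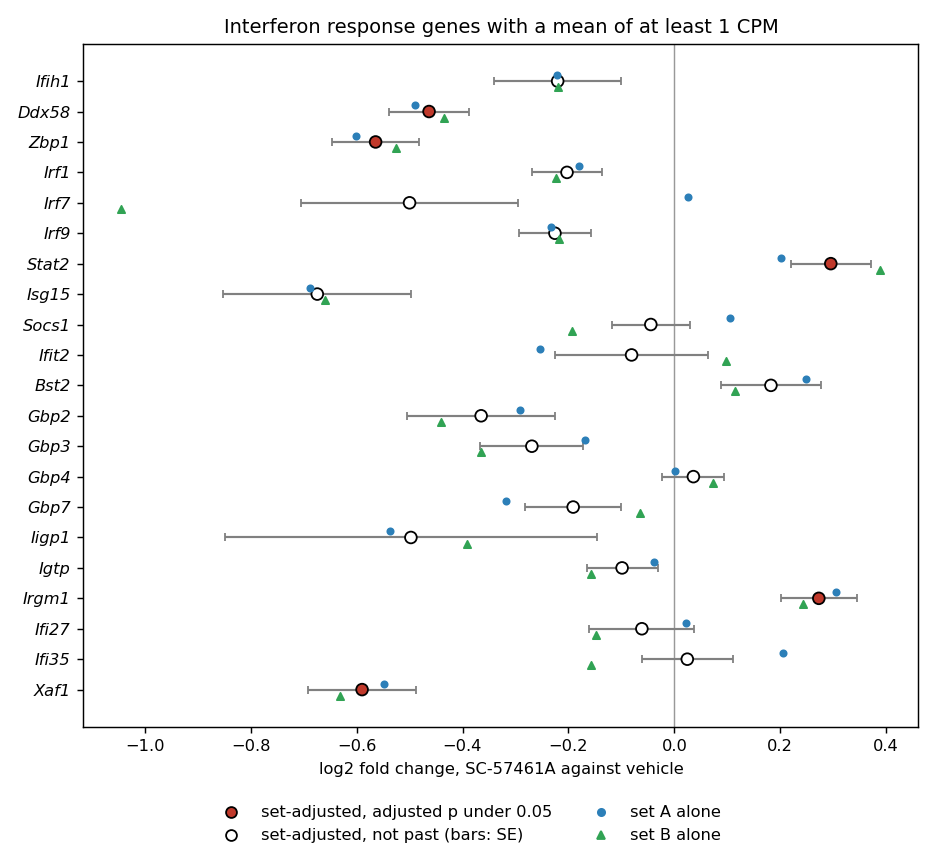
Log2 fold change of SC-57461A against vehicle (horizontal axis) for the 21 genes with a mean of at least 1 CPM. Large circles are set-adjusted estimates with SE bars, red where the adjusted p was under 0.05, and small symbols are the fits of set A and set B alone. Of the 21, 16 set-adjusted estimates lie below 0, and the estimates from both sets lie on the same side of 0 for the 5 red genes.

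Of the 3 sensors of nucleic acid, Ddx58 and Zbp1 fell in the set-adjusted fit. Ddx58 (chr4:40203773-40239825, mm10) encodes RIG-I, which detects viral RNA in the cytosol. Its level was 46.2, 43.9, 53.4 and 60.9 CPM in vehicle replicates 1 to 4 and 43.3, 29.4, 34.4 and 41.5 CPM in SC-57461A replicates 1 to 4. The lowest vehicle library was narrowly above the highest SC-57461A library, and set B was the higher set in both treatments. Within set A the levels were 46.2 and 43.9 against 29.4 and 34.4 CPM, and within set B 53.4 and 60.9 against 43.3 and 41.5 CPM. The set-adjusted log2 fold change was -0.46 ± 0.08 (SE; edgeR adjusted p = 0.00581), a level 0.725 times that of vehicle, while the pooled fit gave -0.46 with an adjusted p of 0.575.

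Zbp1 (chr2:173206612-173218923) encodes a sensor of Z-form nucleic acid that can start necroptosis. It stood at 39.2, 46.4, 32.7 and 32.5 CPM in the vehicle libraries and at 22.2, 25.8, 30.4 and 23.3 CPM in the SC-57461A libraries. The treatments did not overlap, and here set A was the higher set. The set-adjusted log2 fold change was -0.56 ± 0.08 (SE; edgeR adjusted p = 0.00283), with -0.60 in set A alone and -0.53 in set B alone. Ifih1, which encodes the RNA sensor MDA5, was measured at 4.82 to 5.33 CPM with SC-57461A and 5.49 to 6.33 CPM with vehicle. These ranges did not overlap either, but the set-adjusted log2 fold change of -0.22 ± 0.12 (SE) had an edgeR adjusted p of 0.304. The calls on Ddx58 and Zbp1 held in each of the 8 set-adjusted fits that left out 1 library.

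Among the transcription factor genes, Stat2 rose in the set-adjusted fit and the others did not pass the test. Stat2 (chr10:128270576-128292849) encodes a transcription factor that joins IRF9 below the type I receptor. Its level was 30.5, 29.0, 33.4 and 36.7 CPM with vehicle and 47.0, 35.8, 32.4 and 45.1 CPM with SC-57461A. Replicates 2 and 3 of SC-57461A fell inside the vehicle range, and the 2 SC-57461A libraries of set B were the highest of all. In the set-adjusted fit the log2 fold change was 0.30 ± 0.08 (SE; edgeR adjusted p = 0.0451). This call was lost when any library other than SC-57461A replicate 3 was left out, with adjusted p-values up to 0.150.

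Irf9 (chr14:55603571-55610030), the DNA-binding partner of STAT2, was measured at 26.3 to 30.2 CPM with vehicle and 21.7 to 26.4 CPM with SC-57461A. Its set-adjusted log2 fold change of -0.23 ± 0.07 (SE) had an edgeR adjusted p of 0.0823, so the estimates for these 2 partners had opposite signs. Irf1 (chr11:53770014-53777323), a factor that IFN-gamma induces, stood at 68.9, 75.9, 74.7 and 80.6 CPM with vehicle and at 64.9, 60.9, 66.4 and 68.5 CPM with SC-57461A. The lowest vehicle library was narrowly above the highest SC-57461A library, and the set-adjusted log2 fold change was -0.20 ± 0.07 (SE; edgeR adjusted p = 0.104). Irf7, which amplifies type I interferon production, was named after its values were seen. In set B it stood at 7.01 and 5.90 CPM with vehicle and 3.11 and 3.16 CPM with SC-57461A, and in set A at 5.73 and 6.98 against 5.88 and 6.99 CPM. The log2 fold change was -1.04 in set B (edgeR adjusted p = 0.0505) and 0.03 in set A, and the test of the difference between sets gave an adjusted p of 0.907.

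Isg15 and the feedback genes did not pass the test. Isg15 (chr4:156199424-156200818) encodes a ubiquitin-like protein that is joined to other proteins after interferon. Its level was 6.37 and 6.31 CPM in the set A vehicle libraries and 4.11 and 3.73 CPM in the set A SC-57461A libraries. In set B it was 2.84 and 1.83 CPM with vehicle and 1.25 and 1.71 CPM with SC-57461A. Both sets were lower with treatment, and set A stood above set B in either treatment. The set-adjusted log2 fold change, -0.67 ± 0.18 (SE), was the most negative among the genes with a mean of at least 1 CPM, with an edgeR adjusted p of 0.0501, just short of the threshold. A transcript annotated as AC151275.1 is 95.2% identical to Isg15, so reads may be shared between them.

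Over all libraries Socs1 (chr16:10783808-10785536) followed the library set and not the treatment. It stood at 243, 250, 132 and 133 CPM in vehicle replicates 1 to 4 and at 119, 278, 250 and 113 CPM in SC-57461A replicates 1 to 4. All set A libraries were at 243 CPM or more and all set B libraries at 133 CPM or less, in both treatments. The set-adjusted treatment log2 fold change was -0.04 ± 0.07 (SE; edgeR adjusted p = 0.778). For Socs1 it was 0.10 in set A alone and -0.19 in set B alone (edgeR adjusted p = 0.707 and 0.360). Usp18, which encodes an ISG15-removing protease that also blocks IFNAR2, had 8 to 23 counts per library.

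Of the genes for interferon-induced proteins with tetratricopeptide repeats (IFITs), which bind viral RNA, none passed the treatment test. Ifit2 was measured at 4.74, 4.78, 3.02 and 3.16 CPM with vehicle and at 3.13, 3.79, 4.16 and 3.51 CPM with SC-57461A. The treatments overlapped, and the set-adjusted fit put the change at -0.08 ± 0.14 on the log2 scale (SE, edgeR, with an adjusted p of 0.795). Ifit3 had 107, 89, 0 and 0 counts with vehicle and 0, 109, 79 and 4 with SC-57461A, and shares 97.8% of its sequence with Ifit3b. For Ifit1 set A gave 28 to 67 counts and set B gave 0 to 16. Both genes separated the sets, and over all libraries neither separated the treatments. Within set A the mean of Ifit1 was 1.23 CPM with vehicle and 0.657 CPM with SC-57461A (log2 fold change -0.89, edgeR adjusted p = 0.385). In set B the Ifit1 means were 0.0618 and 0.153 CPM.

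The genes of the oligoadenylate synthetase (OAS) family, some of whose products activate RNase L, were low throughout. Oas1a was measured at 0.830, 1.61, 0.767 and 1.04 CPM with vehicle and at 0.423, 0.889, 0.902 and 1.48 CPM with SC-57461A, with overlap between treatments and a near-identical copy, Oas1g (97.6% identity). Oasl2 had 91, 114, 0 and 0 counts with vehicle and 0, 101, 45 and 0 with SC-57461A. Oas2 had 16 to 25 counts in the libraries of set A and 0 in the others, and Oas3 had 23 to 58 counts across all libraries. None of the 4 OAS genes tested had an adjusted p under 0.05 in either fit (edgeR), and 0 had an unadjusted p under 0.05.

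Among the other antiviral effectors, Bst2 (chr8:71534264-71537437) was the abundant one. It stood at 103, 104, 45.7 and 35.0 CPM with vehicle and at 39.5, 117, 128 and 48.1 CPM with SC-57461A. Its set A libraries were at 103 to 128 CPM and its set B libraries at 35.0 to 48.1 CPM. The set-adjusted treatment estimate was 0.18 ± 0.09 in log2 units (SE), and its adjusted p was 0.280 in edgeR. Cmpk2, a mitochondrial nucleotide kinase gene that neighbours Rsad2 (viperin), had 36, 21, 53 and 20 counts with vehicle and 11, 19, 25 and 14 with SC-57461A, with overlap. Its set-adjusted estimate was -0.69 ± 0.49 in log2 units (SE), with an edgeR adjusted p of 0.446.

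Of the 7 tested genes for GTPases that act on the vacuoles of intracellular microbes, Irgm1 passed the treatment test in the set-adjusted fit and the other 6 did not. Gbp4 (chr5:105115767-105139586) was measured at 284, 281, 366 and 340 CPM with vehicle and at 369, 275, 288 and 375 CPM with SC-57461A. Set B stood above set A in either treatment, and the set-adjusted treatment log2 fold change was 0.04 ± 0.06 (SE; edgeR adjusted p = 0.775). Gbp7 stood at 36.7, 30.2, 30.6 and 28.0 CPM with vehicle and at 28.2, 25.0, 28.5 and 28.0 CPM with SC-57461A, with overlapping treatments and an edgeR adjusted p of 0.243. The annotated processed pseudogene Gm43802 lies within 11.3% of its exon bases, so reads cannot be told apart there. Gbp2 and Gbp3 had set-adjusted log2 fold changes of -0.37 ± 0.14 and -0.27 ± 0.10 (SE), with edgeR adjusted p-values of 0.152 and 0.135.

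Irgm1 (chr11:48861968-48871683), a regulator of the other immunity-related GTPases, rose in the set-adjusted fit. It stood at 57.6, 57.2, 63.6 and 64.8 CPM with vehicle and at 77.4, 63.7, 77.5 and 75.0 CPM with SC-57461A. Only SC-57461A replicate 2 was inside the vehicle range, and within each set both SC-57461A libraries were above both vehicle libraries. With library set as a term the log2 fold change was 0.27 ± 0.07 (SE; edgeR adjusted p = 0.0497), 1.21 times the level of vehicle. The call was lost when any library other than SC-57461A replicate 2 was left out, with adjusted p-values up to 0.183.

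Igtp (chr11:58199556-58207591), an effector GTPase of the same family, was measured at 80.8, 90.2, 86.8 and 89.6 CPM with vehicle and at 75.7, 81.1, 84.7 and 82.8 CPM with SC-57461A. The ranges overlapped, and the set-adjusted log2 fold change was -0.10 ± 0.07 (SE; edgeR adjusted p = 0.422). It shares 8.0% of its exon bases with Irgm2. For Iigp1, another effector of the family, set A gave 124 to 317 counts and set B 3 to 15.

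Of the remaining interferon-induced genes, Xaf1 fell and the others did not pass the treatment test. Xaf1 (chr11:72301629-72313733) encodes a protein that binds the inhibitor of apoptosis XIAP. It stood at 15.6, 13.7, 11.6 and 10.1 CPM with vehicle and at 6.59, 10.5, 9.43 and 7.44 CPM with SC-57461A. The ranges over all libraries overlapped, with set A higher in both treatments, and within each set both SC-57461A libraries were below both vehicle libraries. The set-adjusted log2 fold change was -0.59 ± 0.10 (SE; edgeR adjusted p = 0.00778), 0.665 times the level of vehicle, and it was called in each of the 8 fits that left out 1 library. Ifi35, whose product pairs with NMI, was measured at 55.9, 61.7, 40.5 and 42.8 CPM with vehicle and at 38.5, 63.9, 71.0 and 36.5 CPM with SC-57461A. Over all libraries it separated by set and not by treatment (set-adjusted log2 fold change 0.02 ± 0.09 SE, edgeR adjusted p = 0.904). The estimates within the sets had opposite signs, 0.20 in set A alone and -0.16 in set B alone (edgeR adjusted p = 0.430 and 0.508). Of the Ifi35 exon bases, 16.8% overlap the antisense gene Gm11626. Cxcl10, a ligand of CXCR3, had 0, 22, 7 and 0 counts with vehicle and 0, 0, 2 and 8 with SC-57461A and was not tested.

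**Figure D3:**
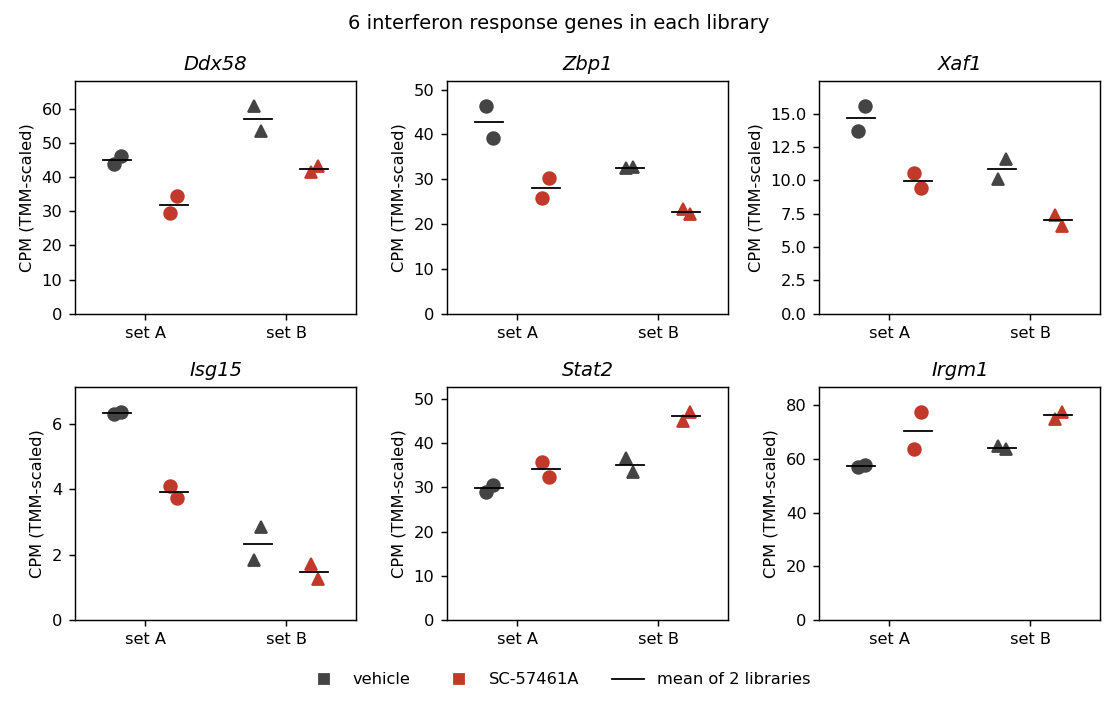
CPM (TMM-scaled, vertical axes from 0) of Ddx58, Zbp1, Xaf1, Isg15, Stat2 and Irgm1 in the 8 libraries, by library set (horizontal axis) and treatment (colour), with lines at the mean of 2 libraries. In each set the SC-57461A libraries of Ddx58, Zbp1, Xaf1 and Isg15 lie below the vehicle libraries, and those of Irgm1 lie above them.

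Within a set there were 2 libraries per treatment. With set A alone edgeR called 0 of the 33 genes, where 0.808% of all genes were called, and with set B alone 0, where 0.682% were. At an unadjusted p under 0.05 there were 7 of the 33 in set A (15.3% of all genes) and 10 in set B (13.7% of all genes). The test of whether the response differed between sets called 0 of the 33 (edgeR), where 0.00662% of all genes were called. In that test 4 genes, Irf7, Socs1, Rsad2 and Ifi35, had an unadjusted p under 0.05, where 4.96% of all genes did. DESeq2 with library set as a term called 2 higher and 6 lower, and added Irf1, Irf9 and Isg15 to the 3 that edgeR called lower. It gave an adjusted p to 12461 genes and called 6.04% of these higher, 6.43% lower and 12.5% in all. Some low-count genes of the 33, Usp18 and Ifit1 among them, had no adjusted p there and could not be called.

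Isg15, Bst2 and Socs1 were among the interferon response genes that differed between the library sets. In the set term of the set-adjusted fit 17 were higher in set A and 4 were lower, together 63.6% of the 33, where 26.3% of all genes were called higher, 24.3% lower and 50.6% in all. The 17 include Oas2, Oasl2, Ifi44 and Rtp4, which had 0 counts in set B and passed the filter on low counts only through set A, and Ifit1, Ifit3, Iigp1 and Rsad2, which had 16 counts or fewer in each library of set B. For the genes at 0 that filter fixed the direction, so the counts are a description and nothing is read from the excess over all genes. The 4 that were lower in set A were Ddx58 (log2 difference -0.38), Gbp4 (-0.36), Stat2 (-0.34) and Irf9 (-0.18). Among the genes higher in set A, Isg15 had a log2 difference of 1.43 ± 0.18 (SE; edgeR adjusted p = 4.6e-05), Bst2 one of 1.42 ± 0.10 and Socs1 one of 1.05 ± 0.07. As the sets were read from these same libraries, p-values of the set term describe the split and are no independent test. Length moved with the sets over the whole table: the median log2 difference, set A minus set B, was 0.59 for tested genes whose longest transcript was under 1000 bases and -0.22 for those of at least 4000 bases. The sets were read from summed FPKM, which rises when more of the counts fall on short genes. The direction of these length differences is thus partly fixed by how the sets were made and is no independent finding. Isg15 (756 bases), Bst2 (792 bases) and Ifi27 (977 bases) are in the short class. The long class holds 7 of the genes: Gbp4 and Stat2 were below 0, and Gbp7, Ifih1, Oas3, Rsad2 and Ifi44 were above 0, with a median of 0.06 over the 7. In the set-adjusted fit the median treatment log2 fold change of the short class was 0.14, against -0.67 for Isg15. The part of length in these values was not tested.

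**Figure D4:**
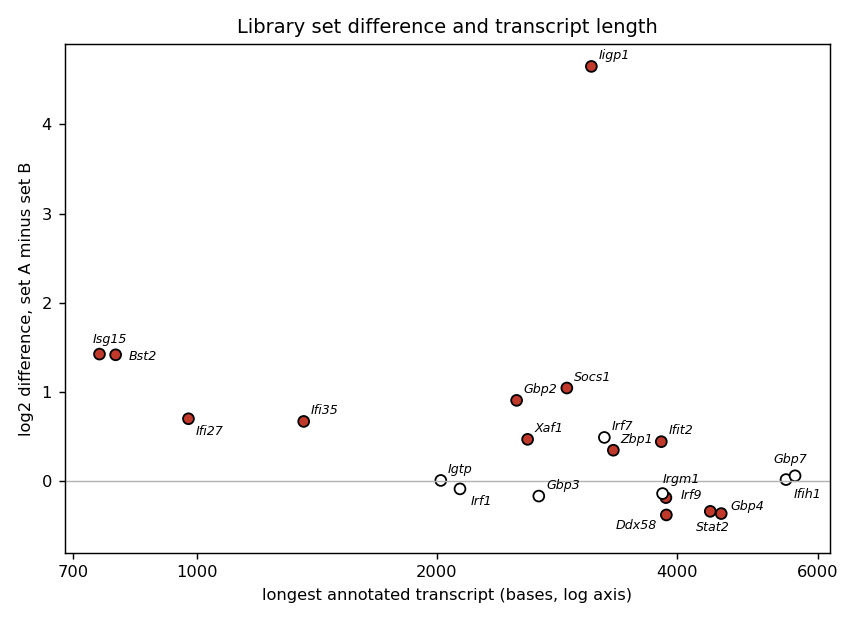
Log2 difference between library sets (set A minus set B, vertical axis) against the longest annotated transcript (bases, log axis) for the 21 interferon response genes with a mean of at least 1 CPM, filled where the adjusted p was under 0.05. Isg15 and Bst2, the shortest, lie at 1.43 and 1.42, Iigp1 at 4.65, the long transcripts Stat2 and Gbp4 below 0, and the longest, Gbp7 and Ifih1, at 0.06 and 0.02.

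Oas2, Oasl2, Ifi44 and Rtp4 had 0 counts in all 4 set B libraries and counts in all 4 set A libraries. They could be tested only because set A carried them past the filter, so their number among the tested genes is not set against the other genes. Ifi44, an interferon-induced gene of unsettled function, had 27 and 36 counts with vehicle and 36 and 20 with SC-57461A in set A, and Rtp4, a chaperone of membrane receptors, had 31 and 91 against 45 and 29. Both treatments of set A held these transcripts, so the pattern did not follow SC-57461A. Transcripts of other cell types moved with it: Lyz2, a myeloid lysozyme gene, had 851 to 1607 counts per library of set A, the neutrophil gene S100a9 had 83 to 139 and the endothelial gene Cdh5 had 85 to 175, and each was at 0 throughout set B. Over the 7 macrophage and monocyte markers the sum was 25.3 to 46.3 CPM in set A and 6.36 to 8.32 CPM in set B, with 4 of the 7 at 0 in all of set B. Over the 4 neutrophil markers it was 3.24 to 6.18 CPM against 0. Over the 4 endothelial markers it was 67.4 to 75.9 CPM in set A and 76.7 to 85.3 CPM in set B, with 3 of the 4 at 0 in all of set B. These sums are scaled to the library total and not by TMM factors. The factors were 0.928 to 0.976 in set A and 1.03 to 1.05 in set B. The small gap between sets in the endothelial sum is therefore not read as a difference. Of the 5 markers listed for plasmacytoid dendritic cells, Siglech, which defines them, had 0 counts in every library. The others had counts. Tcf4 had 542 to 912 per library, and Klk1 had 12 to 42 across set A but 0 throughout set B. Ccr9 and Cox6a2 reached at most 20 and 25 counts. The sum of all 5 was 11.6 to 16.3 CPM for set A, against 11.7 to 15.7 CPM for set B. The part of such other cell types in the level of the interferon response genes was not tested.

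The receptors and kinases that act before these genes were expressed, and some were lower with SC-57461A. The longer list of the pathway held 133 genes, 128 of them in the table and 113 tested. In the pooled fit 0 were called (edgeR, 16 at an unadjusted p under 0.05). In the set-adjusted fit 5 rose and 15 fell, together 17.7%, where 5.33% of all genes were called. The median set-adjusted log2 fold change of the 113 was -0.09, and 29 of them (25.7%) were lower with SC-57461A within each set, against 10.3% of all genes, while 9 (7.96%) were higher, against 9.61%.

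Ifngr1 (chr10:19591949-19610229), which encodes the ligand-binding chain of the IFN-gamma receptor, fell. It stood at 57.0, 57.8, 63.8 and 62.6 CPM with vehicle and at 51.9, 45.6, 49.5 and 49.0 CPM with SC-57461A, with no overlap. The set-adjusted log2 fold change was -0.30 ± 0.06 (SE; edgeR adjusted p = 0.0206). Ifnar1, a chain of the type I receptor, fell as well, from 86.1 ± 11.9 to 71.0 ± 10.2 CPM (SD, n = 4), by 0.28 on the log2 scale (edgeR adjusted p = 0.0350). The other chains did not pass the test: Ifnar2 had a set-adjusted log2 fold change of 0.22 (adjusted p = 0.202) and Ifngr2 one of -0.07 (adjusted p = 0.684).

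The kinases Jak1, Jak2 and Tyk2 had set-adjusted log2 fold changes of -0.22, -0.10 and -0.18, with edgeR adjusted p-values of 0.0705, 0.374 and 0.159. Ptpn6, which encodes the phosphatase SHP-1 that limits JAK signalling, fell from 43.2 ± 1.45 to 33.9 ± 1.73 CPM (log2 fold change -0.35, edgeR adjusted p = 0.0123). Irf4, a factor that lymphocytes also induce on activation, rose from 255 ± 27.0 to 339 ± 52.4 CPM (log2 fold change 0.40, edgeR adjusted p = 0.00955).

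Among the 88 further induced genes tested, 4 rose and 11 fell in the set-adjusted fit, together 17.0%, where 5.33% of all genes were called. The 11 that fell are 12.5% of the 88, against 2.5% of all genes called lower, and 2.83% of all genes were called higher. The strongest was Mov10, an RNA helicase gene that restricts retroelements. It stood at 22.4, 20.9, 22.1 and 27.5 CPM with vehicle and at 14.0, 14.1, 11.1 and 16.9 CPM with SC-57461A. The treatments did not overlap, the set-adjusted log2 fold change was -0.74 ± 0.11 (SE; edgeR adjusted p = 0.0031), and the call held in each of the 8 fits that left out 1 library.

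Mndal, a gene of the interferon-inducible p200 family, fell by 0.53 on the log2 scale (adjusted p = 0.0118), from 13.3 ± 0.891 to 9.19 ± 0.788 CPM. The guanylate-binding protein genes Gbp9 and Gbp8 fell by 0.40 and 0.34 (adjusted p = 0.0121 and 0.0153, edgeR), while Gbp4 itself did not pass the test. Both overlap Gbp4 on the same strand and share 60 and 61 exon bases with it, 0.8% of its exon bases each. The genes that rose included Slfn2, a schlafen gene needed for lymphocyte quiescence (0.39, adjusted p = 0.0113), and the class I gene H2-Q7 (0.33, adjusted p = 0.0162). H2-Q7 stood at 395 to 445 CPM with vehicle and 469 to 573 CPM with SC-57461A, with no overlap.

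Many of these calls were lost when 1 library was left out. Of the 20 genes of the pathway list called in the set-adjusted fit, 17 were lost without vehicle replicate 2 and 17 without SC-57461A replicate 4, where the share of all genes called was 1.71% and 1.6%. Without vehicle replicate 3, 2 were lost, and 6.27% of all genes were called. The calls on Ifngr1 and Ifnar1 were lost without vehicle replicate 1, 2 or 4 and without SC-57461A replicate 1 or 4, and that on Ifnar1 also without SC-57461A replicate 3.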

How the data were processed

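The authors deposited 1 table with a raw count and an FPKM value per gene and library, per the file headers, with gene coordinates, and 0 value columns were left unmatched to a sample. The deposited counts are whole numbers and sum to a different total in each library. FPKM was computed by the authors, per the file headers, and was used here for levels between genes, for the library sets and for limma. Reads were handled with cutadapt 4.7 and FastQC and the build was mm10, per the submitters' processing notes. The aligner, counter, strand setting and gene models were not given in the sources used here. Without a stated strand setting, reads of a gene and of an antisense partner cannot be told apart.

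The 38 genes and the longer pathway list were chosen with earlier results of these data known. Symbols came from GENCODE M21, which matched 25032 of 25367 identifiers. Coordinates are those of the deposited table. Counts were filtered (filterByExpr, 15095 genes), scaled by TMM and tested in edgeR 4.0.16 (quasi-likelihood test, R 4.3.3), over all genes, without library set (pooled) and with it (set-adjusted). The SE is the log2 fold change divided by the square root of the F statistic. CPM values are scaled by TMM factors, except the sums of marker genes and the CPM of 3 counts, which are scaled to the library total only. The edgeR and DESeq2 fits, each without and with library set, and limma were tested on simulated data. The other settings were not. Total counts were 47376196 to 71155654 per library, so 3 counts are 0.0422 to 0.0633 CPM. The chi-square per degree of freedom between 2 libraries was 15.8 or more, so none was a repeat deposit.

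Values per library are given for genes called in either fit and for the 2 most abundant of each role group (10 groups), the rest as ranges. Of the pathway list, the 8 with the smallest p among those called and the fixed receptors and kinases are named. Some single-gene results are left out of this text. Alternatives were RLE and upper-quartile factors, other filters, DESeq2 1.42.0, limma 3.58.1 on log2(FPKM + 1) and log2(FPKM + 0.1), the replicate number as a block, each set alone, and each library left out. Near-identical transcripts were found with BLAST 2.17.0 (identity of 95% or more over 50% or more of a transcript). Motifs were searched in RefSeq promoters (GRCm38.p6). Python 3.11.15, pandas 2.3.3, numpy 2.4.6 and matplotlib 3.10.9 handled tables and plots.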

Additional observations from a re-analysis of the deposited data

Results flagged for a closer look

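Gbp7 stood at 25.0 CPM in SC-57461A replicate 2, while the other 3 SC-57461A libraries were at 28.0 to 28.5 CPM. The gap to the nearest library was 0.871 of the range of the group, above Dixon's 95% critical value for 4 samples. It was the 1 such library found in 98 groups tested, and chance flags about 1 in 20. The pooled log2 fold change of Gbp7 was -0.12 to -0.25 over the fits that left out 1 library each and was not past the threshold in any of them (edgeR).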

How the results depend on the processing

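Without library set, 0 of the 33 genes were called higher and 0 lower under each of the other scalings, filters and tools, with each library left out, and with the replicate number as a block. With library set as a term 2 were higher and 3 lower, and with DESeq2 and library set 2 and 6. Against that set-adjusted result, dropping the library set term gave 0 higher and 0 lower, set A alone 0 and 0, and set B alone 0 and 0, the last 2 settings with 4 libraries each. Leaving out each library gave 0 to 1 higher and 3 to 4 lower. The pooled median log2 fold change of the genes ran from -0.26 to -0.01 and the set-adjusted one from -0.23 to -0.08 over the libraries left out. The causes were not tested.

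The replicate numbers are not stated to pair the samples, and same-numbered libraries deviated together for replicates 2 and 4 (r = 0.635 and 0.608) but not for 1 and 3 (-0.587 and -0.561). With the replicate block the median was -0.19, and Socs1 changed sign at -0.046.

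Of the 33 genes, 18 changed sign against the pooled fit under at least 1 alternative, and none was past the threshold with the opposite sign (lowest adjusted p = 0.360). They include Irf7, at -0.42 pooled and 0.03 in set A alone, and 8 of the 18 genes named with values per library. Socs1 (pooled 0.00) was -0.0081 with no low-count filter, -0.075 with limma on log2(FPKM + 1) with and without the filter, -0.076 with limma on log2(FPKM + 0.1), -0.044 with library set, -0.045 with DESeq2 and library set, and -0.19 in set B alone. Ifi35 (0.06) was -0.0057, -0.0057 and -0.0069 with the same 3 limma settings and -0.16 in set B alone. In set B alone Ifit2 was 0.10 and Oas1a 0.066, against -0.11 and -0.20 pooled. Over the libraries left out, the pooled log2 fold change ran from -0.24 to 0.19 for Socs1, -0.13 to 0.21 for Ifi35, -0.085 to 0.45 for Bst2, -0.031 to 0.12 for Gbp4, -0.52 to 0.055 for Oas1a, -1.62 to 0.61 for Oasl2 and -0.65 to 0.77 for Ifit3. Values of genes under 1 CPM rest on few counts.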
